A study of Mus musculus with 12 samples.

Results

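Of the genes measured by RNA sequencing in mouse hippocampus, the Wnt pathway genes described here encode the secreted Wnt ligands, the proteins that release them, their receptors and co-receptors, the proteins that remove receptors, secreted inhibitors, and the cytoplasmic and nuclear proteins that carry the signal. They were chosen by symbol alone. The rule took all numbered Wnt and Fzd genes, Sfrp1 to Sfrp5, Dkk1 to Dkk4, Axin1, Axin2, Dvl1 to Dvl3 and Lgr4 to Lgr6. It also took Ctnnb1, Apc, Apc2, Gsk3b, Lrp5, Lrp6, Tcf7, Tcf7l1, Tcf7l2, Lef1, Nkd1, Nkd2, Notum, Apcdd1, Rnf43, Znrf3, Wif1, Porcn and Wls. Of 46078 gene IDs, 64 had such a symbol, and 60 of these reached a mean of 10 normalized counts over the 12 libraries, as 17496 IDs did in all. The ligands Wnt3a and Wnt8a and the inhibitors Dkk1 and Dkk4 did not, with 13, 11, 8 and 1 reads in all 12 libraries together, and were not tested.

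The study compared mice heterozygous for Asn2373LysfsX2, a frameshift mutation of Chd8, with wild-type mice. All were on a C57BL/6 background and 25 days old, and the tissue was the hippocampus, with no sorting of cells stated. The groups were mutant males, wild-type males, mutant females and wild-type females, with 3 libraries each. Whether each library is a different mouse is not stated, so any p-value here reflects how libraries of 1 group vary, and that variation may be technical. Values are normalized counts, that is reads of a gene divided by 1 size factor per library. Levels are compared between genes only after division by the length of their exons, as normalized counts per kb.

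Wnt ligands are lipid-modified glycoproteins that bind Frizzled receptors, encoded by the Fzd genes, together with the co-receptors Lrp5 or Lrp6. Binding halts the destruction complex of Axin, Apc and the kinase Gsk3b, so that beta-catenin, the product of Ctnnb1, accumulates and acts with Tcf and Lef proteins on target genes such as Axin2. In the hippocampus the pathway is known for its role in forming the structure and in neurogenesis of the dentate gyrus, and Chd8 encodes a chromatin remodeller first described as a protein that binds beta-catenin.

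Libraries held 23721482 to 24654408 reads in mutants and 26912998 to 33327314 in wild types, so that depth and genotype cannot be told apart. Chd8 itself had 2423, 2383 and 2508 normalized counts in mutant males, against 2751, 2994 and 2855 in wild-type males. In females it had 2477, 2426 and 2513 normalized counts in mutant females, against 2893, 2845 and 2872 in wild-type females, and the genotypes did not overlap in either sex. Its log2 difference, mutant minus wild type averaged over both sexes, was -0.22 ± 0.026 (standard error), with a limma adjusted p of 0.0289 over 17496 genes and an exact two-sided permutation p of 0.005, the smallest that 400 arrangements allow. The adjusted p was 0.0250 to 0.0281 without mutant male 3 or wild-type male 1, and 0.0790 to 0.161 without any other 1 of the 12 libraries. All 8 dentate granule cell, 6 CA1 and 6 CA3 markers were measured in the tissue. The summed CA1 markers ranged from 10201 to 16383 normalized counts in mutant males and 12861 to 15099 in wild-type males. In females they ranged from 12691 to 16735 in mutants and 9549 to 17480 in wild types. Markers of other cell types differed between libraries too. The mean log2 level of 16 choroid plexus markers, all measured, was 10.87, 5.08 and 5.45 in mutant males, against 10.98, 10.68 and 10.73 in wild-type males, and 10.29, 9.44 and 10.62 in mutant females, against 4.89, 9.22 and 10.91 in wild-type females. The same mean of 14 meningeal fibroblast markers, all measured, was 8.68, 9.38 and 8.95 in mutant males, against 9.50, 9.07 and 8.65 in wild-type males, and 9.70, 10.33 and 8.92 in mutant females, against 8.29, 8.33 and 8.80 in wild-type females. Summed normalized counts of the choroid plexus markers ranged from 6560.0 to 239025 in mutant males, 213108 to 264359 in wild-type males, 87325 to 200362 in mutant females and 7216 to 248674 in wild-type females. Those of the meningeal fibroblast markers ranged from 11039 to 14104 in mutant males, 13131 to 19736 in wild-type males, 14659 to 27648 in mutant females and 7269 to 13907 in wild-type females.

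The promoters are shown for 5 genes on which the results below turn. Axin2 is the textbook target of the pathway, and Wnt6 is the gene with the widest range in females. Fzd7, Wls and Sfrp5 were low in mutant males 2 and 3 and wild-type female 1, the libraries lowest in choroid plexus markers. Fzd7 and Wls were highest in mutant female 2, the library highest in meningeal fibroblast markers. Each window runs from 250 bases before to 50 bases after a start site in RefSeq on GRCm38.p6, 5′ to 3′ on the strand of the gene, and a lone capital marks the first transcribed base. A run of capitals marks a match to the Tcf and Lef core motif in one of 4 forms, CTTTG followed by AT, TT, AA or TA, on either strand. The forms share their first bases, so only 1 of them can match at a position.
Axin2, chr11:108920099-108920398 on the plus strand: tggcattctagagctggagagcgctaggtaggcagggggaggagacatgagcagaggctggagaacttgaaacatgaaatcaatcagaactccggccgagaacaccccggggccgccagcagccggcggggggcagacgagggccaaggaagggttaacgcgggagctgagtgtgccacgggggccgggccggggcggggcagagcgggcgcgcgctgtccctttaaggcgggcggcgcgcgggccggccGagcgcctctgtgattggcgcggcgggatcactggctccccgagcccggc
Fzd7, chr1:59481897-59482196 on the plus strand: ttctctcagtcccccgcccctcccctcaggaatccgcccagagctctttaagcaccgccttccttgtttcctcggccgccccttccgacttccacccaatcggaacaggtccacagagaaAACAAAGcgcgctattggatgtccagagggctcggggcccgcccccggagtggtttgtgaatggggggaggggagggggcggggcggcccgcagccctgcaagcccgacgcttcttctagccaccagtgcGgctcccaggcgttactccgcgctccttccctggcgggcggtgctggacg
Sfrp5, chr19:42202203-42202502 on the minus strand: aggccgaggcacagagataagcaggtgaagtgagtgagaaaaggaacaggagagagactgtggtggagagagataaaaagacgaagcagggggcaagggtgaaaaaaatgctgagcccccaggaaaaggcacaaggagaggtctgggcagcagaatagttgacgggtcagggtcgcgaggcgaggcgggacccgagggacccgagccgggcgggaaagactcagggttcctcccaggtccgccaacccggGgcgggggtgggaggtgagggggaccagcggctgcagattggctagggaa
Wls, chr3:159839400-159839699 on the plus strand: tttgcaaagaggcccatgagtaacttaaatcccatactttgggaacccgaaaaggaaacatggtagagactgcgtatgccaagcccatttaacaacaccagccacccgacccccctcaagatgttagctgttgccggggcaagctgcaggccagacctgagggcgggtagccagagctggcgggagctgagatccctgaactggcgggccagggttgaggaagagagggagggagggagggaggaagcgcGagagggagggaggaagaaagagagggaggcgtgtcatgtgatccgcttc
Wnt6, chr1:74771642-74771941 on the plus strand: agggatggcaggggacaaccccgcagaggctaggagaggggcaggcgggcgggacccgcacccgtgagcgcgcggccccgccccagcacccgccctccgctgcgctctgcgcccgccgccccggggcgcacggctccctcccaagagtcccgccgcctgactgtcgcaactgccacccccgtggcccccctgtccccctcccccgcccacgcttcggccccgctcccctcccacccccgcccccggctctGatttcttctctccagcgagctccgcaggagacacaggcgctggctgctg
Of these windows only that of Fzd7 held a match, CTTTGTT on the minus strand beginning 130 bases before the start site. RefSeq windows were matched for 41 of the 60 genes, 54 windows in all, of which 7 (13.0%) held at least 1 match, against 16.9% of 32851 windows of all genes. The median number of CpG dinucleotides was 23.5 in the windows of the Wnt pathway genes and 7 in all windows. The other windows with a match belonged to Apc2, Lef1, Tcf7l2, Wnt3, Wnt5b and Wnt11. A match is a description of these letters and not evidence of binding.

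Levels differed widely between the genes. Ctnnb1 had the highest level, 2892 normalized counts per kb, and its 12 libraries (2726 to 3044) did not overlap with those of Dkk3 (2024 to 2596), the next gene and the most abundant of the 9 inhibitors measured. Dkk3 is a secreted Dickkopf relative expressed by pyramidal neurons. Apc followed with 1029 to 1202 per kb, then Porcn, the acyltransferase that attaches the lipid to Wnt ligands, with 733 to 821. These 4 genes kept that order in all 12 libraries. Dvl1 (541 to 598 per kb) and Gsk3b (516 to 558 per kb) overlapped.

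Among the 17 ligands Wnt7b stood first with 186 to 227 normalized counts per kb, above every library of Wnt7a (111 to 146). Wnt4 (75.2 to 127) overlapped with both Wnt7a and Wnt9a (68.3 to 104), and Wnt9a with Wnt5a (47.2 to 82.4). The median ligand had 22.8 normalized counts per kb and the lowest, Wnt10b, 3.73. Of the 12 receptors Lrp6 was highest (149 to 209), above every library of the Frizzled genes, among which Fzd6 (80.8 to 112), Fzd1 (69.7 to 103) and Fzd7 (52.3 to 109.7) overlapped. Lgr4, a receptor for R-spondins, had 164 to 186 per kb, and the stem cell marker Lgr5 had 4.37 to 7.60. Of the 4 nuclear effectors Tcf7 was highest (38.1 to 53.6) and Lef1 lowest (10.01 to 14.8), and Tcf7l1 (20.98 to 26.7) overlapped with Tcf7l2 (14.9 to 22.04).

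**Figure D1:**
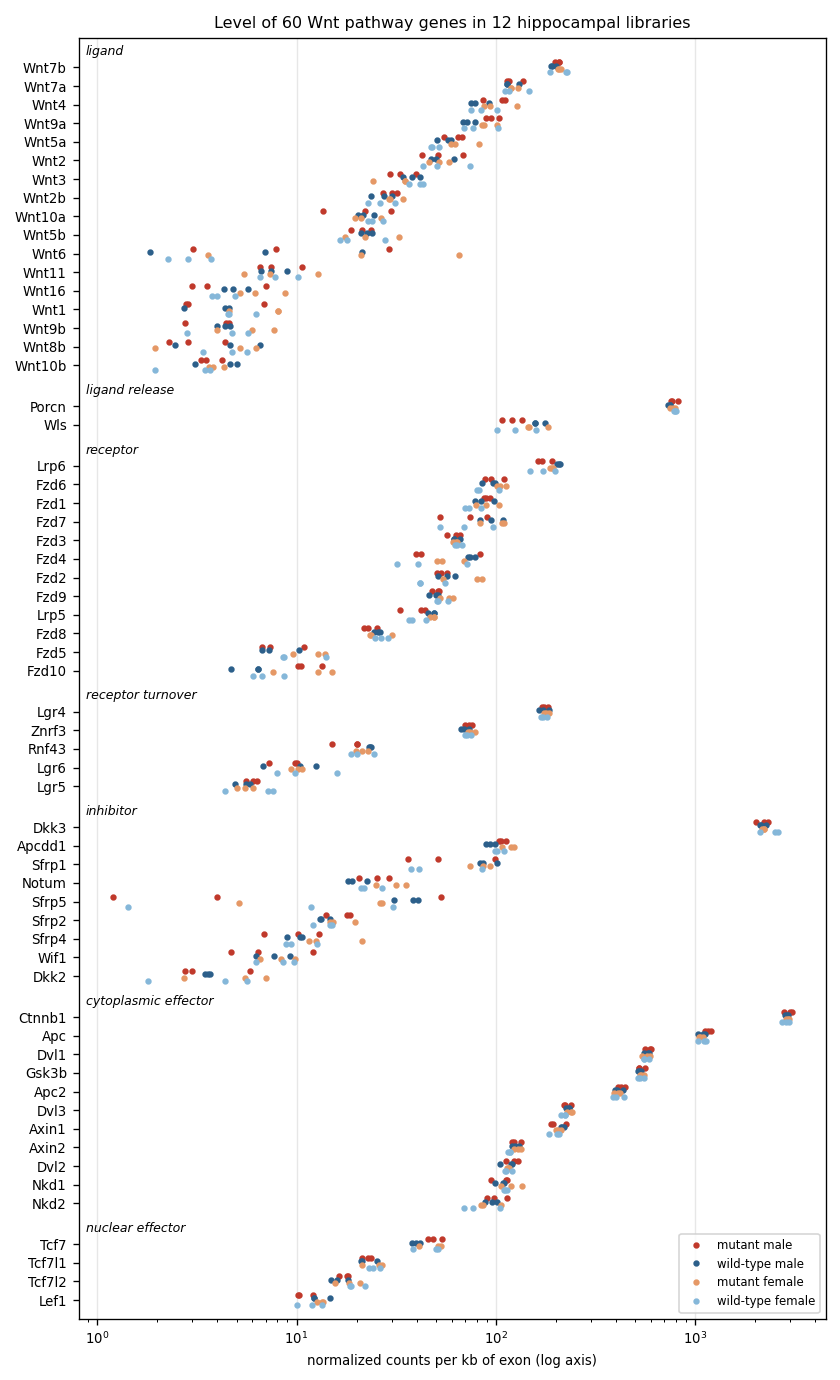
Level of the 60 Wnt pathway genes in normalized counts per kb of exon (log axis), grouped by role, with 1 point per library in 4 groups of 3. Ctnnb1, Dkk3, Apc and Porcn lie above all others, and Sfrp5 and Wnt6 are spread over more than 10-fold between libraries.

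No Wnt pathway gene passed a limma adjusted p of 0.05 in any genotype comparison. In the comparison averaged over both sexes 0 of 60 passed, and 0.00572% of the 17496 genes did, which is Chd8 alone. An unadjusted p under 0.05 was met by 8 of 60 (13.3%) against 8.87% of all genes. That count fell to 5 when mutant male 2, wild-type male 3, mutant female 2 or wild-type female 2 was left out in turn. In those fits 7.06% to 8.52% of all genes had such a p. It rose to 11 (9.03% of all genes) once mutant female 3 was dropped. Dropping wild-type female 3 gave 10 (8.88%), and dropping mutant male 1 gave 9 (11.2%). Dropping any other library gave 6 to 8. Within mutant males and wild-type males 0 passed the adjusted threshold (0% of all genes) and 8 of 60 had an unadjusted p under 0.05 (13.3% against 10.3%). Within mutant females and wild-type females 0 passed (0% of all genes) and 13 of 60 had an unadjusted p under 0.05 (21.7% against 6.9%). For the difference between the genotype effects of males and females 0 passed (0% of all genes) and 7 of 60 had an unadjusted p under 0.05 (11.7% against 7.85%). It is the genotype effect in males minus that in females, and is called the difference between the sexes below. It does not compare the levels of males with those of females. On reads recovered from the normalized counts, edgeR called 0 genes of the pathway in all 4 of these comparisons, with 9, 8, 12 and 7 at an unadjusted p under 0.05, against 9.21%, 9.25%, 7.05% and 6.86% of all genes. DESeq2 called 1, Apcdd1, in the averaged comparison and 0 in the others, with 8, 8, 10 and 6 at an unadjusted p under 0.05, against 7.14%, 7.46%, 5.42% and 5.37% of all genes. Over all 17496 genes edgeR called 1, 0, 0 and 0 in these comparisons, and DESeq2 called 75, 35, 11 and 3. The smallest limma adjusted p among the 60 genes was 0.285, that of Apcdd1 in the averaged comparison.

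The direction in females was uneven. Of the 13 genes with an unadjusted p under 0.05 there, 12 were higher in mutants (20% of the 60, against 3.82% of all genes) and 1 was lower (1.67%, against 3.07%). In males 4 were higher and 4 lower, 6.67% each, against 4.1% and 6.23% of all genes. Averaged over both sexes 7 were higher (11.7%, against 4.4%) and 1 was lower (1.67%, against 4.47%). The log2 difference was positive for 44 of 60 in females (73.3% against 50.5% of all genes), for 36 of 60 in males (60% against 50.6%) and for 42 of 60 averaged (70% against 49.9%). The median log2 difference of the 60 genes was 0.12 in females, 0.013 in males and 0.035 averaged, and that of all genes lay within 0.0017 of 0 in each. The median in females was 0.065 without mutant female 2. That in males was -0.0027 without wild-type male 2, -0.0059 without wild-type male 3, 0.025 without mutant male 2, 0.030 without mutant male 1 and 0.033 without wild-type male 1. Averaged it was 0.022 without mutant female 2 and 0.053 without mutant female 3. The interquartile range in females was 0.32 for the 60 genes and 0.14 for all genes. The count of 13 in females became 5 without mutant female 2 (5.95% of all genes), 7 without mutant female 1 (5.3%) and likewise 7 without wild-type female 2 (5.65%). It became 8 if wild-type female 1 was left out (7.25% of all genes) and 16 if wild-type female 3 was (10.3%). Fits with marker scores as covariates were chosen after the data had been seen. With the meningeal fibroblast score the count in females became 0, against 3.7% of all genes, and the median in females became 0.018. With the choroid plexus score the count was 10 (8.18% of all genes) and the median 0.084. With both scores they were 0 (6.65%) and 0.019. The averaged count of 8 was 4 with the meningeal fibroblast score (6.62%), 10 with the choroid plexus score (10.2%) and 4 with both (8.29%). The meningeal fibroblast score was higher in every mutant female than in every wild-type female, so in females that score and genotype cannot be told apart.

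**Figure D2:**
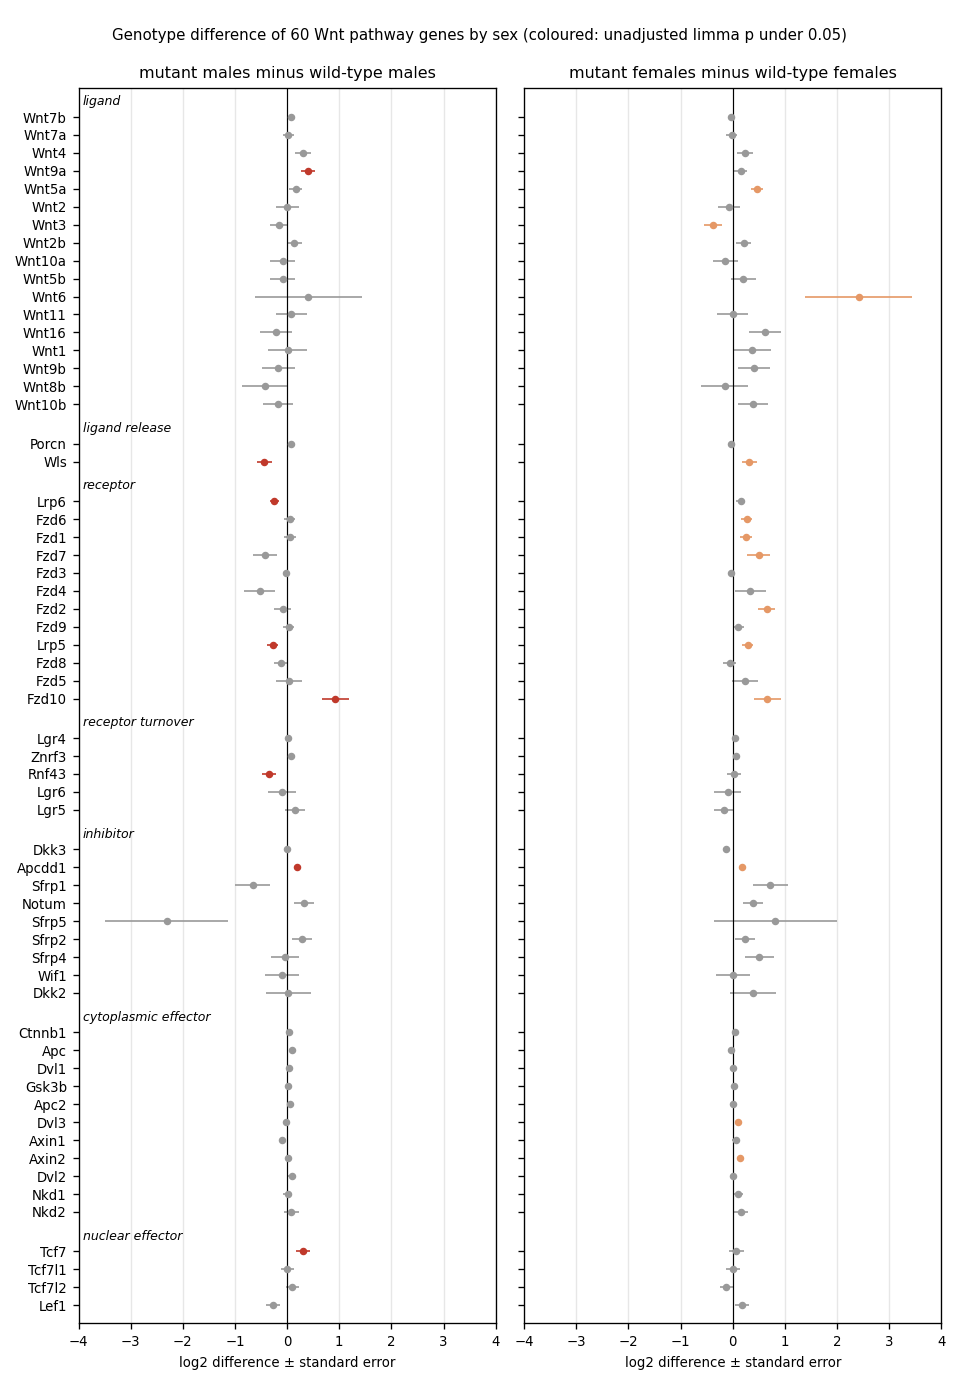
Log2 difference, mutant minus wild type, with its standard error for the 60 Wnt pathway genes in males (left) and females (right), grouped by role; coloured points have an unadjusted limma p under 0.05. In females 12 of the 13 coloured points lie above 0, and in males 4 lie above and 4 below.

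Among the ligands, 3 had higher and 1 had lower levels in mutants at an unadjusted p under 0.05 in the averaged comparison, and 13 of 17 had a positive difference. Of all genes 4.4% were higher and 4.47% lower at that p, and 49.9% were positive. Wnt5a signals mainly outside the beta-catenin route and is expressed in the cortical hem during development. Wnt5a (chr14:28504750-28527448 on the plus strand) had 431, 531 and 505 normalized counts in mutant males, against 465, 448 and 398 in wild-type males. Among females it had 489, 645 and 468 normalized counts in mutant females, against 374, 369 and 407 in wild-type females. All 3 mutant females lay above all 3 wild-type females, mutant female 2 highest, while males overlapped. The log2 difference was 0.46 ± 0.12 in females, 0.16 ± 0.12 in males and 0.31 ± 0.083 averaged (limma adjusted p = 0.341).

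Wnt9a, a ligand of the beta-catenin route known from joint development, had 297, 345 and 314 normalized counts in mutant males, against 227, 238 and 261 in wild-type males. All mutant males exceeded all wild-type males. In females it had 284, 289.8 and 336 normalized counts in mutant females, against 232, 343 and 255 in wild-type females, with overlap through wild-type female 2. The log2 difference was 0.40 ± 0.13 in males and 0.27 ± 0.093 averaged (limma adjusted p = 0.417). Wnt4, known for its part in kidney and gonad development, had 360.3, 452 and 465 normalized counts in mutant males, against 315, 388 and 331 in wild-type males. In females Wnt4 had 394, 534 and 365 normalized counts in mutant females, against 426, 316 and 353 in wild-type females. The genotypes overlapped in both sexes, with the highest value again in mutant female 2, and the averaged difference was 0.27 ± 0.11 (limma adjusted p = 0.508).

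Wnt3 stood in the other direction. It is a ligand of the beta-catenin route expressed by hippocampal astrocytes of adult rodents. In males it had 90.6, 102 and 122 normalized counts in mutant males, against 117, 105 and 128 in wild-type males, with overlap. In females it had 74.5, 107 and 107 normalized counts in mutant females, against 113, 127 and 133 in wild-type females, and all mutants lay below all wild types. The log2 difference was -0.38 ± 0.16 in females and -0.27 ± 0.12 averaged (limma adjusted p = 0.525), and in females it was -0.20 without mutant female 1. Wnt3 (chr11:103774150-103817957 on the plus strand) lies 24328 bases from Wnt9b, a neighbouring ligand gene of the opposite strand.

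Wnt6 varied most between libraries among the ligands. It had 6.63, 63.5 and 17.4 normalized counts in mutant males, against 46.5, 15.2 and 4.03 in wild-type males. Among females it had 46.3, 143 and 7.92 normalized counts in mutant females, against 8.17, 6.28 and 4.98 in wild-type females. Mutant female 2, mutant male 2, wild-type male 1 and mutant female 1 were high, and mutant female 3 lay below wild-type female 1. The log2 difference in females was 2.42 ± 1.02 (limma adjusted p = 0.671), with the meningeal fibroblast score as a covariate it was -1.02, and without mutant female 2 it was 1.48. The 4 libraries high in Wnt6 were the 4 highest in that score. Wnt10a, the next ligand gene on the same strand and 6193 bases away on chromosome 1, had 54.2, 73.7 and 33.7 normalized counts in mutant males, against 60.3, 53.1 and 50.03 in wild-type males. In females Wnt10a had 48.5, 52.1 and 65.6 normalized counts in mutant females, against 67.2, 59.2 and 56.4 in wild-type females, so the genotypes overlapped in both sexes. Wnt10a was picked as the neighbour of Wnt6 after its values were seen.

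The most abundant ligands showed no difference beyond the spread. Wnt7b, which acts in brain vessel growth and dendrite growth, had 972, 1009.8 and 1012 normalized counts in mutant males, against 938, 979 and 923 in wild-type males. In females Wnt7b had 1034, 1017 and 1005 normalized counts in mutant females, against 1114, 910.1 and 1098 in wild-type females. The averaged log2 difference was 0.025 ± 0.047, with a 95% confidence interval of -0.077 to 0.13. Wnt7a, its closest relative, had 367, 359.7 and 434 normalized counts in mutant males, against 362, 415 and 362 in wild-type males. In females Wnt7a had 409, 377 and 379 normalized counts in mutant females, against 464, 369 and 354 in wild-type females, and the averaged difference was 0.0035 ± 0.076 (95% confidence interval -0.16 to 0.17). Both ligands overlapped between genotypes in each sex. Of the remaining ligands Wnt16 had no overlap in females, with 27.1, 37.99 and 22.6 normalized counts in mutant females, against 16.3, 21.5 and 17.4 in wild-type females (difference 0.61 ± 0.31, limma adjusted p = 0.756); it was singled out for that after its values were seen. In all, 5 of 60 genes were higher and 1 was lower in every mutant female than in every wild-type female, 8.33% and 1.67%, against 5.14% and 5.66% of all genes. In males 6 were higher and 5 lower without overlap, 10% and 8.33%, against 8.37% and 7.68% of all genes.

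**Figure D3:**
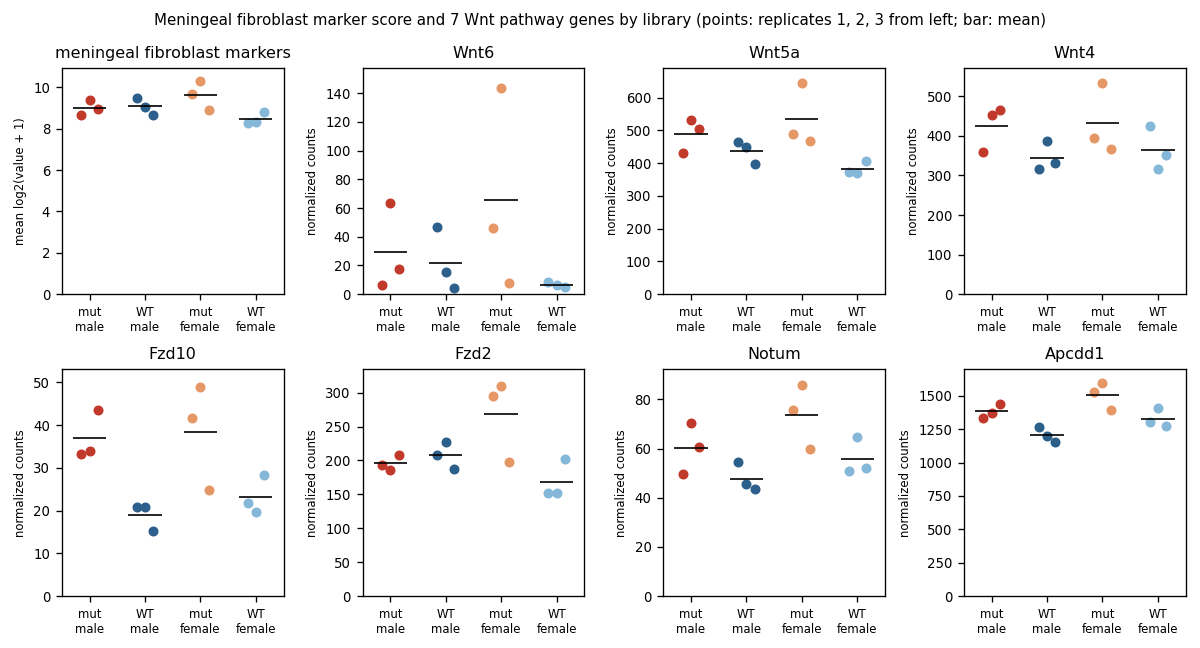
Mean log2 level of 14 meningeal fibroblast markers and normalized counts of 7 Wnt pathway genes in each library, with group means as bars. Mutant female 2 is highest in the markers and in Wnt6, Wnt5a, Wnt4, Fzd10, Fzd2, Notum and Apcdd1.

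Wls carries Wnt ligands to the cell surface, and Porcn adds their lipid before that. Wls had 1192, 944 and 1059 normalized counts in mutant males, against 1552, 1385 and 1378 in wild-type males, and every mutant male lay below every wild-type male. In females Wls had 1293, 1606 and 1272 normalized counts in mutant females, against 891, 1096 and 1403 in wild-type females, with overlap through wild-type female 3. The log2 difference was -0.44 ± 0.14 in males and 0.32 ± 0.14 in females, and the difference between the sexes was -0.75 ± 0.20 (limma adjusted p = 0.619). The difference of Wls in females was 0.16 without wild-type female 1, 0.21 without mutant female 2 and 0.48 without wild-type female 3. Porcn had 2267, 2463 and 2286 normalized counts in mutant males, against 2199, 2244 and 2252 in wild-type males, without overlap, and 2234, 2380.3 and 2310.2 normalized counts in mutant females, against 2349, 2392 and 2363 in wild-type females, with overlap, and its averaged difference was 0.015 ± 0.027 (limma adjusted p = 0.906).

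Of the 12 receptors, 6 were higher in mutant females at an unadjusted p under 0.05 and 0 lower, and 4 had an unadjusted p under 0.05 for the difference between sexes, all negative. Of all genes 3.82% were higher and 3.07% lower in mutant females at that p, and 5.41% were negative for the difference. Fzd10, a Frizzled of the roof plate and cortical hem in embryos, had the largest averaged difference of the receptors. Fzd10 (chr5:128600844-128604093 on the plus strand) had 33.2, 34.04 and 43.5 normalized counts in mutant males, against 20.8, 20.9 and 15.3 in wild-type males. Among females it had 41.8, 48.8 and 24.9 normalized counts in mutant females, against 21.8, 19.7 and 28.2 in wild-type females. Mutant males lay above wild-type males without overlap, and in females mutant female 3 lay within the wild-type range. These values rest on 19 to 45 reads per library, and its averaged difference was 0.80 ± 0.19 (limma adjusted p = 0.311).

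Fzd2, a receptor for Wnt5a among others, had 193, 186 and 208 normalized counts in mutant males, against 208, 228 and 188 in wild-type males. Males overlapped. In females Fzd2 had 296, 310.4 and 198 normalized counts in mutant females, against 152, 152 and 202 in wild-type females, where mutant females 1 and 2 were high and mutant female 3 lay within the wild-type range. Its log2 difference was 0.65 ± 0.17 in females, -0.083 ± 0.17 in males and -0.73 ± 0.23 between the sexes (limma adjusted p = 0.619). The other Frizzled genes with an unadjusted p under 0.05 in females were Fzd1, Fzd6 and Fzd7. Fzd6, which orders hair follicles and other cells in a plane, had 528, 454 and 424 normalized counts in mutant males, against 479.5, 409.8 and 466 in wild-type males. In females Fzd6 had 488, 542 and 503 normalized counts in mutant females, against 395, 389.5 and 497 in wild-type females. Both sexes overlapped, and its difference in females was 0.27 ± 0.11 (limma adjusted p = 0.658). Fzd1, which can signal through beta-catenin, had 376, 391 and 366 normalized counts in mutant males, against 409, 355 and 328 in wild-type males. In females Fzd1 had 375, 433 and 334 normalized counts in mutant females, against 292, 306 and 355 in wild-type females. Both sexes overlapped, and the difference was 0.26 ± 0.11 in females and 0.058 ± 0.11 in males (limma adjusted p = 0.680 and 0.902). In females it was 0.16 without mutant female 2.

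The log2 differences of both co-receptors had opposite signs in the sexes. Lrp5 (chr19:3584828-3686564 on the minus strand) had 428, 411 and 321 normalized counts in mutant males, against 477, 476 and 443 in wild-type males. Among females, Lrp5 had 475, 476 and 455.9 normalized counts in mutant females, against 356, 368 and 436 in wild-type females. All mutant males lay below all wild-type males, and all mutant females above all wild-type females. Its log2 difference was -0.28 ± 0.11 in males and 0.28 ± 0.11 in females, and the difference between the sexes was -0.56 ± 0.15 (limma adjusted p = 0.619). In males the difference of Lrp5 was -0.15 without mutant male 3. Lrp6, the more abundant co-receptor, had 2609, 2335 and 2217 normalized counts in mutant males, against 2821, 2859 and 2774 in wild-type males, also without overlap. In females Lrp6 had 2553, 2614 and 2656 normalized counts in mutant females, against 2034, 2359 and 2711 in wild-type females, with wild-type female 3 above all mutants. The difference was -0.24 ± 0.085 in males and 0.15 ± 0.085 in females, and -0.39 ± 0.12 between the sexes (limma adjusted p = 0.619).

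Fzd7, a Frizzled of stem and progenitor cells, had 407, 336 and 238 normalized counts in mutant males, against 492, 427 and 378 in wild-type males. Among females it had 489, 497 and 376 normalized counts in mutant females, against 237, 312 and 437 in wild-type females. Mutant male 3 and wild-type female 1 were lowest, and both sexes overlapped. The genotype difference in males minus that in females was -0.93 ± 0.32 (limma adjusted p = 0.619). Fzd4, a receptor of blood vessels that also binds norrin, had 558, 284 and 266 normalized counts in mutant males, against 525, 496 and 487 in wild-type males, and 339.7, 359 and 465 normalized counts in mutant females, against 214, 275 and 479.7 in wild-type females. Mutant males 2 and 3 and wild-type females 1 and 2 were low. It was singled out after its values were seen, and its genotype difference in males minus that in females was -0.86 ± 0.42 (limma adjusted p = 0.653).

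The genes that remove receptors from the membrane and the Lgr receptors that oppose them held no averaged difference at an unadjusted p under 0.05. Rnf43, a ubiquitin ligase for Frizzled proteins, had 132, 98.7 and 131 normalized counts in mutant males, against 151, 156 and 153 in wild-type males, so that every mutant male lay below every wild-type male. In females Rnf43 had 150.1, 139 and 130.1 normalized counts in mutant females, against 123, 132 and 160.2 in wild-type females, with overlap. Its difference in males was -0.35 ± 0.13 (limma adjusted p = 0.443), and -0.22 without mutant male 2. Its relative Znrf3 stood at 0.062 ± 0.040 averaged, Lgr4 at 0.029 ± 0.037, Lgr5 at -0.0099 ± 0.14 and Lgr6 at -0.096 ± 0.19.

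Among the 9 inhibitors, Apcdd1 had the smallest p of all 60 genes in the averaged comparison. It encodes a membrane protein that binds Wnt ligands and Lrp5 and acts in brain vessels. Apcdd1 had 1334, 1373 and 1442 normalized counts in mutant males, against 1268, 1198 and 1151 in wild-type males. In females, Apcdd1 had 1531, 1594 and 1390.4 normalized counts in mutant females, against 1301, 1408 and 1273 in wild-type females. Mutant males lay above wild-type males without overlap, and in females mutant female 3 lay just below wild-type female 2. The difference was 0.20 ± 0.060 in males, 0.18 ± 0.060 in females and 0.19 ± 0.043 averaged (limma adjusted p = 0.285). DESeq2 on recovered reads gave Apcdd1 an adjusted p of 0.0336. Endothelial markers, 14 of 14 measured, had an unadjusted p under 0.05 for 4 higher and 0 lower in the averaged comparison. Markers of pericytes and smooth muscle, 11 of 11 measured, had one for 8 higher and 0 lower. Of all genes 4.4% were higher and 4.47% lower at that p. The part of these markers in the result was not tested. The summed endothelial markers ranged from 12073 to 13341 in mutant males, 11989 to 12791 in wild-type males, 12694 to 15327 in mutant females and 12032 to 12671 in wild-type females. The summed pericyte and smooth muscle markers ranged from 8198 to 10621 in mutant males, 7719 to 8254 in wild-type males, 8697 to 14476 in mutant females and 8052 to 8564 in wild-type females. In bulk tissue a change in the number of cells of a type and a change in RNA per cell cannot be told apart.

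Notum, a secreted enzyme that removes the lipid of Wnt ligands, had 49.7, 70.3 and 60.9 normalized counts in mutant males, against 54.4, 45.5 and 43.6 in wild-type males. In females, Notum had 75.6, 85.7 and 59.96 normalized counts in mutant females, against 50.8, 64.6 and 52.3 in wild-type females. The genotypes overlapped in both sexes, and the averaged difference was 0.35 ± 0.13 (limma adjusted p = 0.454). The kit did not keep strand, and 38.1% of the exon bases of Notum are shared with 2 other genes, mainly Notumos on the opposite strand, so reads of these genes cannot be told apart there. Dkk3 had 6799.9, 7738 and 7404 normalized counts in mutant males, against 7096, 7564 and 7173 in wild-type males. In females Dkk3 had 7473, 7389 and 7235 normalized counts in mutant females, against 8720.0, 8412 and 7076 in wild-type females, where wild-type females 1 and 2 were highest. The averaged difference was -0.060 ± 0.049 (95% confidence interval -0.17 to 0.046).

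Sfrp1 and Sfrp5 encode secreted proteins that bind Wnt ligands through a Frizzled-like domain. Sfrp1 had 432, 225 and 158 normalized counts in mutant males, against 445, 377 and 362 in wild-type males. In females, Sfrp1 had 377, 409 and 324 normalized counts in mutant females, against 164, 180.4 and 373 in wild-type females. Mutant males 2 and 3 and wild-type females 1 and 2 were low and the other 8 libraries high, so both sexes overlapped. The difference was -0.66 ± 0.34 in males, 0.72 ± 0.34 in females and -1.38 ± 0.48 between the sexes (limma adjusted p = 0.619). Sfrp5, singled out after its values were seen, had 101, 2.27 and 7.61 normalized counts in mutant males, against 73.2, 58.8 and 77.5 in wild-type males. In females it had 50.8, 9.77 and 49.8 normalized counts in mutant females, against 2.72, 22.4 and 58.1 in wild-type females. Mutant male 2, wild-type female 1 and mutant male 3, the 3 libraries lowest in choroid plexus markers, were also the 3 lowest in Sfrp5, on as few as 2 reads. Mutant female 2 was next lowest in Sfrp5, at 9.77, with a choroid plexus marker mean of 9.44. The difference of Sfrp5 was -2.31 ± 1.18 in males and 0.82 ± 1.18 in females (limma adjusted p = 0.528 and 0.941).

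For the genotype effect in males minus that in females, 7 genes had an unadjusted p under 0.05. They were Lrp5, Lrp6, Wls, Fzd2, Fzd7, Sfrp1 and Lef1, and all 7 were negative (11.7% of 60, against 5.41% of all genes negative at that p). Of the choroid plexus markers 16 of 16, and of the meningeal fibroblast markers 6 of 14, had a negative difference of that kind at the same p. Once the choroid plexus score entered as covariate 5 of the 60 genes had an unadjusted p under 0.05, once the meningeal fibroblast score did 4 had one, and once both did 0. In the same fits 6.48%, 4.81% and 7.18% of all genes had such a p. With both scores the difference between the sexes was 0.26 for Fzd7 and 0.15 for Sfrp1. Leaving out mutant males 2 and 3 and wild-type female 1, the lowest in choroid plexus markers, keeps 1 mutant male, assumed to vary like the other groups, and 2 wild-type females. Then 2 of the 60 genes had such a p for the difference between sexes and 0 in males, against 6.49% and 7.76% of all genes. Without mutant male 1 the count was 17 in males (12.3% of all genes) and 12 for the difference (10%), without mutant male 3 it was 5 in males (8.61%), and without wild-type female 3 it was 11 for the difference (12.4%). These analyses with scores or without the 3 libraries were chosen after the data had been seen.

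**Figure D4:**
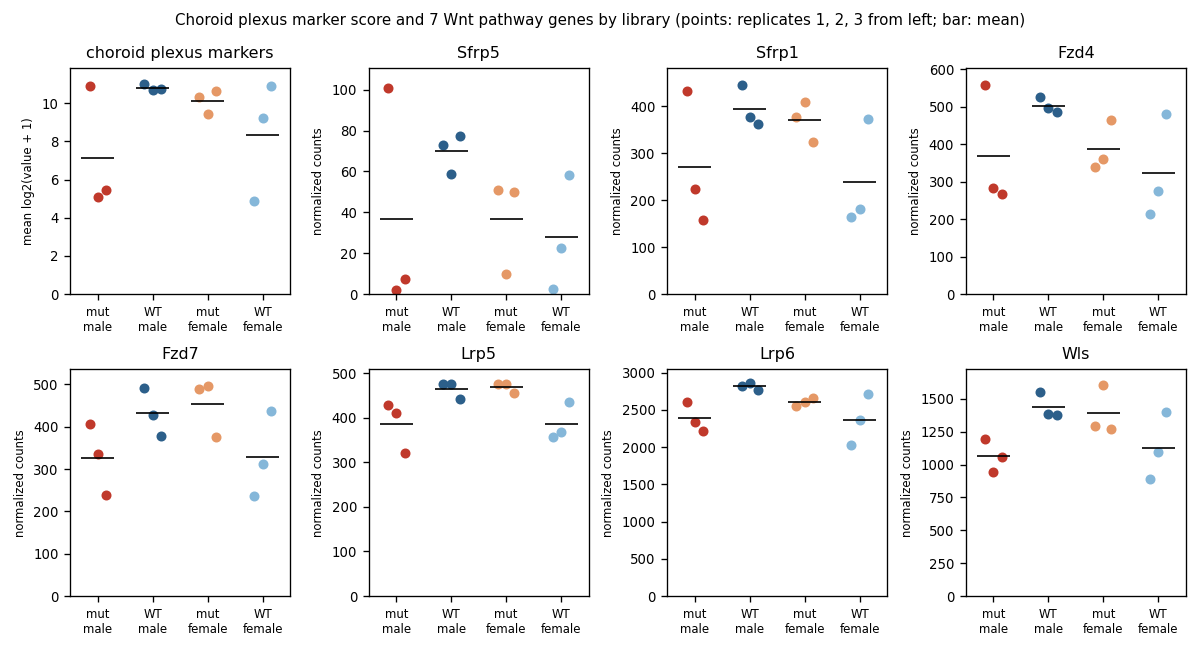
Mean log2 level of 16 choroid plexus markers and normalized counts of 7 Wnt pathway genes in each library, with group means as bars. Mutant males 2 and 3 and wild-type female 1 are low in the markers and in Sfrp5, and Sfrp1 and Fzd4 are low in the same libraries and in wild-type female 2. Sfrp5 is also low in mutant female 2, which is not low in the markers to that degree.

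The cytoplasmic core of the pathway differed little between genotypes. All 11 cytoplasmic effectors had an averaged log2 difference between -0.020 and 0.12, and 0 of 11 had an unadjusted p under 0.05 in that comparison. Ctnnb1 had 15568, 14403 and 15806 normalized counts in mutant males, against 15144, 14711 and 14933 in wild-type males. In females Ctnnb1 had 14826, 15214 and 15361 normalized counts in mutant females, against 14785, 14154 and 15261 in wild-type females. The genotypes overlapped in both sexes, and the averaged difference was 0.035 ± 0.029, with a 95% confidence interval of -0.028 to 0.098. Gsk3b stood at 0.018 ± 0.027 and Apc at 0.035 ± 0.033, and Apc was higher in every mutant male than in every wild-type male (difference 0.099 ± 0.046, limma adjusted p = 0.494).

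Axin2, a scaffold of the destruction complex and a target of the pathway, had 734, 665 and 682 normalized counts in mutant males, against 719, 684 and 661 in wild-type males, with overlap. In females Axin2 had 676, 713 and 733 normalized counts in mutant females, against 651, 635 and 651 in wild-type females, and all mutants lay above all wild types. The difference was 0.13 ± 0.054 in females (limma adjusted p = 0.660) and 0.072 ± 0.039 averaged, with a 95% confidence interval of -0.012 to 0.16. Dvl3, a Dishevelled adaptor that couples Frizzled to the complex, had 1417, 1527 and 1413 normalized counts in mutant males, against 1484, 1487 and 1433 in wild-type males. In females Dvl3 had 1539, 1453 and 1522 normalized counts in mutant females, against 1423, 1355 and 1427 in wild-type females, again without overlap in females and with overlap in males. Its difference in females was 0.10 ± 0.043 (limma adjusted p = 0.669).

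Of the nuclear effectors, Tcf7 had 120.5, 141 and 127 normalized counts in mutant males, against 109, 104 and 100.1 in wild-type males, so that all mutant males lay above all wild-type males. In females Tcf7 had 139.9, 135 and 109 normalized counts in mutant females, against 131, 135 and 100.4 in wild-type females, with overlap. Its difference was 0.31 ± 0.14 in males (limma adjusted p = 0.480) and 0.070 ± 0.14 in females. Lef1, which marks neuronal progenitors of the dentate and thalamic neurons, had 106, 90.8 and 89.1 normalized counts in mutant males, against 108, 130.0 and 108 in wild-type males, without overlap, and 118, 111 and 119.9 normalized counts in mutant females, against 118, 87.96 and 105 in wild-type females, with overlap. The difference was -0.27 ± 0.14 in males, 0.17 ± 0.14 in females and -0.44 ± 0.19 between the sexes (limma adjusted p = 0.619). Tcf7l2, abundant in thalamus and oligodendrocyte lineage cells, had 158, 144 and 159 normalized counts in mutant males, against 159, 140.4 and 131 in wild-type males. In females Tcf7l2 had 160.2, 183 and 137 normalized counts in mutant females, against 193, 162 and 165 in wild-type females, and the averaged difference was -0.0100 ± 0.089 (95% confidence interval -0.20 to 0.18).

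**Figure D5:**
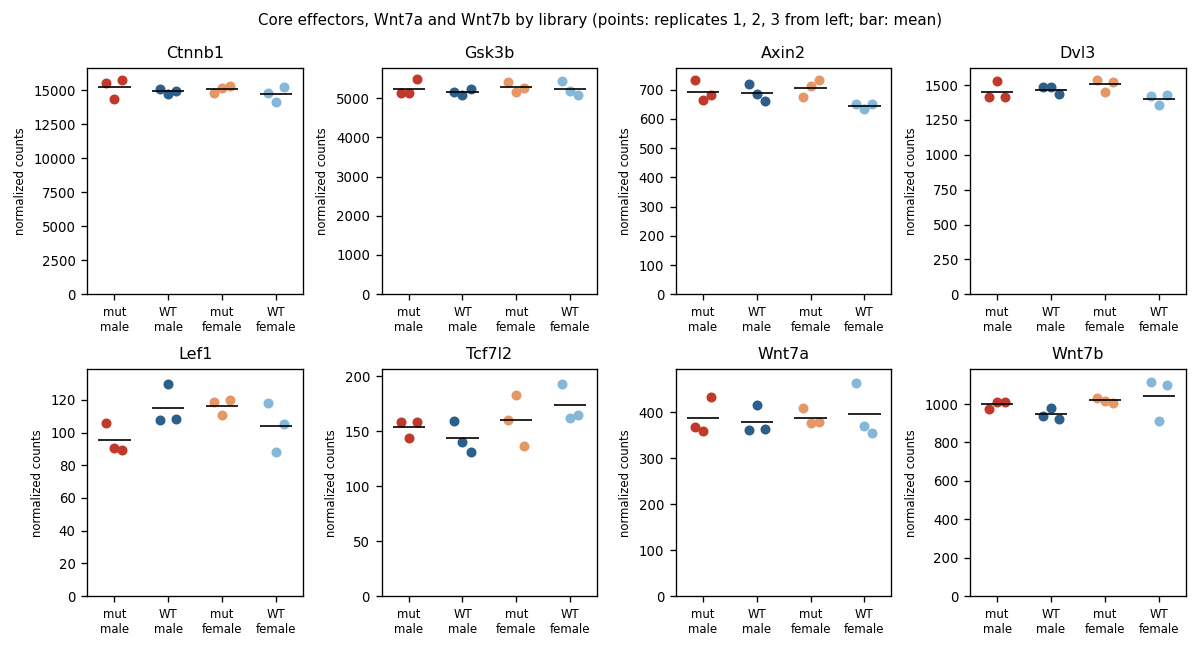
Normalized counts of 6 effectors and the ligands Wnt7a and Wnt7b in each library on axes that start at 0, with group means as bars. Axin2 and Dvl3 are higher in all 3 mutant females than in all 3 wild-type females, Lef1 is lower in all 3 mutant males than in all 3 wild-type males, and the other genes overlap.

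The remaining 22 genes were those left once all genes described individually had been set apart. Those included every gene with an unadjusted p under 0.05 or without overlap. They also included genes that overlapped and had no such p, such as Ctnnb1, Gsk3b, Wnt7a and Wnt7b. By that choice they overlapped between genotypes in both sexes, and 0 of them had such a p in any comparison. They were the ligands Wnt1, Wnt2, Wnt2b, Wnt5b, Wnt8b, Wnt9b, Wnt10b and Wnt11, the receptors Fzd3, Fzd8 and Fzd9, the inhibitors Sfrp2, Sfrp4, Wif1 and Dkk2, the effectors Dvl1, Dvl2, Axin1 and Apc2, the feedback antagonists of Dishevelled Nkd1 and Nkd2, and Tcf7l1. Their averaged log2 differences ran from -0.29 ± 0.31 for Wnt8b, a ligand of the developing cortical hem, to 0.26 ± 0.13 for Sfrp2. Of these differences 16 of 22 were positive, against 49.9% of all genes. In females they ran from -0.16 ± 0.45 for Wnt8b to 0.51 ± 0.27 for Sfrp4, and the smallest limma adjusted p of any of them in a genotype comparison was 0.601.

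Between males and females, averaged over both genotypes, 0 of 60 Wnt pathway genes passed the limma adjusted threshold and 0.0686% of all genes did, with 2 of 60 (3.33%) against 6.64% of all genes at an unadjusted p under 0.05. Both of the 2 were lower in males, as 3.54% of all genes were. The count was 1 without wild-type male 2 (5.61% of all genes) or wild-type male 3 (5.48%), 3 without mutant female 2 (6.08%) or wild-type female 2 (6.63%), 4 without mutant female 3 (6.38%) and 5 without wild-type female 3 (8.02%). It was 6 with the choroid plexus score as covariate (8.5% of all genes), 3 with the meningeal fibroblast score (6.64%), 10 with both (9.34%) and 7 when mutant males 2 and 3 and wild-type female 1 were left out (8.49%). Here edgeR and DESeq2 also called 0, each with 2 at an unadjusted p under 0.05, against 6.68% and 4.59% of all genes. The pair was Apcdd1, at -0.13 ± 0.043 male minus female (limma adjusted p = 0.571), and Fzd5, at -0.45 ± 0.18 (limma adjusted p = 0.673). Fzd5, a receptor of eye and vessel development, had 75.2, 46.5 and 51.1 normalized counts in mutant males, against 71.2, 46.5 and 50.03 in wild-type males. In females it had 95.9, 89.00 and 66.7 normalized counts in mutant females, against 59.9, 59.2 and 97.1 in wild-type females, and males and females overlapped.

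Other genes of the pathway were taken from 5 lists of textbook members. Of 23 further receptors, co-receptors and inhibitors, 0 passed the limma adjusted threshold in the averaged comparison, 3 were higher and 1 was lower in mutants at an unadjusted p under 0.05, and the median log2 difference was 0.016, beside 4.4% of all genes higher and 4.47% lower at that p. They were Ror2, a receptor for Wnt5a, at 0.57 ± 0.17, Draxin, a secreted inhibitor and axon guidance protein, at 0.30 ± 0.080, Adgra2, a vascular co-receptor for Wnt7a and Wnt7b, at 0.29 ± 0.11, and Kremen1, a receptor for Dickkopf proteins, at -0.11 ± 0.040. Sostdc1, an inhibitor and one of the choroid plexus markers, stood at -0.73 ± 0.72. Of 32 cytoplasmic regulators of beta-catenin 0 passed. The phosphatase subunit Ppp2r5e, at 0.090 ± 0.031, was the only 1 with an unadjusted p under 0.05, against 8.87% of all genes.

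Of 22 genes listed as nuclear cofactors 1 passed, Chd8 itself. The list also held Tcf3, which is a different gene from Tcf7l1 and may not be such a cofactor. Sox17, a beta-catenin partner of endothelial cells, at 0.43 ± 0.12, and Pygo1, which bridges beta-catenin to chromatin, at 0.10 ± 0.036, had an unadjusted p under 0.05. Of all genes 8.87% had such a p. Of 36 genes of the planar cell polarity and calcium branches 0 passed. The transcription factor Nfatc4 stood at 0.40 ± 0.13 and Daam2, a formin expressed in oligodendrocyte lineage cells, at -0.13 ± 0.04. All 14 of the 14 oligodendrocyte markers measured were lower in mutants at an unadjusted p under 0.05 in the same comparison, against 4.47% of all genes. Their summed normalized counts ranged from 315617 to 409642 in mutant males, 400634 to 438828 in wild-type males, 380863 to 436933 in mutant females and 447400 to 511851 in wild-type females, and their part in the value of Daam2 was not tested.

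Textbook target genes of the pathway gave the last list. Of 28 targets 0 passed the limma adjusted threshold in the averaged comparison, and the median log2 difference was 0.0031, beside 14 positive values. At an unadjusted p under 0.05, 4 were higher and 0 lower in mutants: Neurod1, a factor of granule neuron differentiation, at 0.18 ± 0.05, Twist1, a factor of mesenchymal cells, at 0.66 ± 0.21, the immediate early gene Jun at 0.12 ± 0.04 and the proto-oncogene Mycn at 0.27 ± 0.09. Of all genes 4.4% were higher and 4.47% lower at that p.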

How the data were processed

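Tools named in the submitters' processing notes are DESeq2, HTSeq, TopHat2 2.1.0 and Trimmomatic 0.35, with the build GRCm38 and no role or order; the gene annotation behind the counts is not stated. Each gene's deposited signal is its read count over a size factor of the library, as the numbers themselves show: all values (100% in each library, within 0.001 reads) were whole multiples of that library's step, which gave back the reads. The table held 0 columns of other samples, and 935 of 46078 IDs had no symbol. Libraries were made with TruSeq RNA v2, per the labels, which does not keep strand. Symbols, 1-based coordinates and exon lengths are from GENCODE M21 on GRCm38.

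Values were transformed as log2(value + 1), which understates differences of low genes, and IDs with a mean of at least 10 were fitted with limma 3.58.1 and its trend option in R 4.3.3, with 1 mean per group over all 12 libraries. P-values were adjusted by Benjamini-Hochberg over 17496 genes at a threshold of 0.05. Since the values were no raw counts, edgeR 4.0.16 and DESeq2 1.42.0 on recovered reads served as alternatives. The limma and edgeR fits were tested on simulated data, and the DESeq2 fit was not. Within groups, reads of 12 library pairs differed by a chi-square per degree of freedom of 3.42 to 30.6, so none were duplicates. Genes and lists were chosen with earlier results of these data known. Values per library are given for genes with an unadjusted p under 0.05 in a genotype comparison and for Ctnnb1, Axin2, Lef1, Tcf7l2, Wnt7a, Wnt7b, Fzd1, Sfrp1 and Dkk3, and from other lists genes with such a p averaged, at most 6 per list. Genes described outside that rule are Wnt10a, Wnt16, Porcn, Fzd4, Fzd5, Sfrp5, Sostdc1, Apc, Gsk3b, Znrf3, Lgr4, Lgr5 and Lgr6, and the remaining 22 by their ranges. Markers of cell types are means of log2(value + 1) over each list.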

Additional observations from a re-analysis of the deposited data

How the results depend on the processing

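In 26 alternatives no Wnt pathway gene passed the adjusted threshold in any comparison, except that DESeq2 called 1, Apcdd1, in the averaged comparison. Of the values of named genes under alternatives, Chd8 aside, 1133 kept their direction and side of the threshold, 32 changed sign and 1 gained a call. None of these genes had a call to lose in the main fit, and the tally did not weigh size. The difference between the sexes of Wls ran from -0.92 to -0.031 over the 26 and counted as kept in all. Chd8 kept its direction in all 26 and lost its call in 15. With TMM scaling Wnt7a averaged was at -0.0017. Leaving out 1 library at a time gave averaged differences of -0.039 to 0.064 for Wnt7a, -0.022 to 0.051 for Wnt7b, -0.061 to 0.044 for Tcf7l2 and -0.17 to 0.22 for Sfrp1, and 0 genes called throughout. The cause of these moves was not tested.

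Marker scores as covariates and the removal of 3 libraries were chosen after seeing the data. The meningeal fibroblast score was higher in every mutant female than in every wild-type female, so it cannot be told apart from genotype there. With the choroid plexus score Wnt7a averaged was at -0.034. With the meningeal fibroblast score the averaged difference was -0.00089 for Fzd1 and -0.11 for Sfrp1, and in females -0.080 for Fzd1 and -1.02 for Wnt6. With both scores it was -0.0059 for Sfrp1 and -0.0054 for Wnt7b averaged, and in females -0.14 for Fzd1, -0.0088 for Fzd10, -0.23 for Fzd7, -0.12 for Wls and -0.46 for Wnt6, while the difference between sexes was 0.26 for Fzd7 and 0.15 for Sfrp1. Without mutant males 2 and 3 and wild-type female 1 Lef1 averaged was at 0.078 and Tcf7l2 at 0.051.

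Replicate numbers did not pair the libraries: same-numbered libraries of different groups correlated in their deviations from group means at -0.58 to 0.29, 4 of 18 over 0.1, and a library correlated best with its own number in 13 of 36 comparisons. With the replicate block 0 Wnt pathway genes were called in each comparison. Of them 9 averaged, 8 in males, 10 in females and 7 for the difference between sexes had an unadjusted p under 0.05. Of all genes 8.92%, 9.88%, 7.02% and 7.22% had such a p. Depth limits the low genes: Fzd10 rests on 346 reads and Wnt6 on 348 over all libraries.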
